A study of Mus musculus with 14 samples.

Results

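RNA of a control brain pool was compared with RNA of a control thymus pool on spotted cDNA arrays read in 2 colours. The comparison uses the pool channel of each array, which is 14 of the 28 channels of the series. The control brain pool holds brain RNA of male C57BL/6 mice of 17 weeks with the genotype control, and it was hybridised on 6 arrays. The control thymus pool holds thymus RNA of mice of the same sex, background, age and genotype, and it was hybridised on 8 arrays. On every array the other channel carried the same organ of a single male C57BL/6 mouse of 17 weeks with the genotype mir-34a minus, and miR-34a is a microRNA that p53 induces. There were 3 such mice for brain and 4 for thymus, each on 2 arrays with exchanged dyes, so the pool gave 3 brain values and 4 thymus values. A value is numbered here by the mutant mouse that shared its slides, and it is the mean of those 2 arrays.

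The labels list 4 control animals for each pool, whereas the labelling protocol speaks of 6. All values of an organ are repeat hybridisations of 1 pool, so their spread is technical, and each p-value compares these 2 pools on these arrays and not mice. No slide carried both organs, so an organ cannot be told apart from the slides it was hybridised on. Thymus array 1 is called thymus in its title and in the name of its pool but brain in the tissue field of both channels, and it was analysed as thymus.

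The brain is built mainly of neurons, which signal at synapses through vesicle release, and of astrocytes, oligodendrocytes and microglia. The thymus is the organ in which T cells mature. Most of its cells are thymocytes, many of which carry both coreceptors, CD4 and CD8, and divide or die during selection.

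Promoter sequences of 3 marker genes are printed because these genes mark opposite organs and have a single start in the reference table. Each window runs from 250 bases before the start of the gene to 50 after it, is written 5′ to 3′ on the strand of the gene, and comes from RefSeq on GRCm38.p6. Capitals mark CpG dinucleotides. Pcp4 lies at chr16:96467356-96467655 on the plus strand, Zic1 at chr9:91365719-91366018 on the minus strand, and Cd8a at chr6:71373177-71373476 on the plus strand.
Pcp4: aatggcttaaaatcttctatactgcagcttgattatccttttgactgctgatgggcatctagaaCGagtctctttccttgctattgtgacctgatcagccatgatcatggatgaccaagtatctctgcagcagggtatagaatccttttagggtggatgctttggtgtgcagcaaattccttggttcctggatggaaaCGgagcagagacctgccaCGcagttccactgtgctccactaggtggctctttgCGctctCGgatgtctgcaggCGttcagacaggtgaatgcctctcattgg
Zic1: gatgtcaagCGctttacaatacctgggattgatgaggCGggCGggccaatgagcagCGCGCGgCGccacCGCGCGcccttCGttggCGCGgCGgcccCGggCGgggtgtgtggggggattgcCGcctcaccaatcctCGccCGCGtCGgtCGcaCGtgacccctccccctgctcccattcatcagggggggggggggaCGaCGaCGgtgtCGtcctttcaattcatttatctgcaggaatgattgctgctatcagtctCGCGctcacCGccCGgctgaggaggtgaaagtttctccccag
Cd8a: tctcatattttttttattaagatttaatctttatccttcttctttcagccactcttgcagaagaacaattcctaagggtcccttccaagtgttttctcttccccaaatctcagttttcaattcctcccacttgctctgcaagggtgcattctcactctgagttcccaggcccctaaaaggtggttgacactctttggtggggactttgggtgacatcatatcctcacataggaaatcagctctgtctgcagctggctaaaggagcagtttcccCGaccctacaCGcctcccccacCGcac

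The Zic1 window holds 31 CpG dinucleotides, the Pcp4 window 6 and the Cd8a window 3, against a median of 7 over 32841 windows of this length. Zic1 and Pcp4 were both higher in the brain pool, so the 2 genes of the same organ stand on either side of that median. Motifs were searched on both strands, with overlapping matches each counted. The TATA box was spelled TATAAA in this search of the windows. The motif known as the CCAAT box was searched by those same letters. For the GC box, a binding motif of Sp1, the letters were GGGCGG. The Zic1 window holds 2 CCAAT boxes and 3 GC boxes, the Pcp4 window 1 CCAAT box, and the Cd8a window none of the 3 motifs. Over all windows the TATA box occurs in 13.6%, the CCAAT box in 37.4% and the GC box in 35.7%. A match is a run of letters and not a measured binding site. Of the 14 genes named below as past the threshold, 10 have a window in the table.

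At the median, more spots were detected on the brain arrays than on the thymus arrays, with ranges that overlap. A spot counted as detected if the mean of its pixels exceeded the local background by 2 or more background SDs. On the brain arrays 13.6% to 89.3% of spots were detected in the pool channel (median 64.2%), and on the thymus arrays 1.61% to 45% (median 27.4%). The median signal above background ran between 48 and 107 intensity units in brain and between 10 and 127 in thymus. Spots marked as not found made up 0.812% to 10.7% of each brain array and 9.32% to 72.4% of each thymus array. The part of these differences in the results below was not tested, and intensity was made comparable only by rank, by quantile normalisation within each dye.

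**Figure D1:**
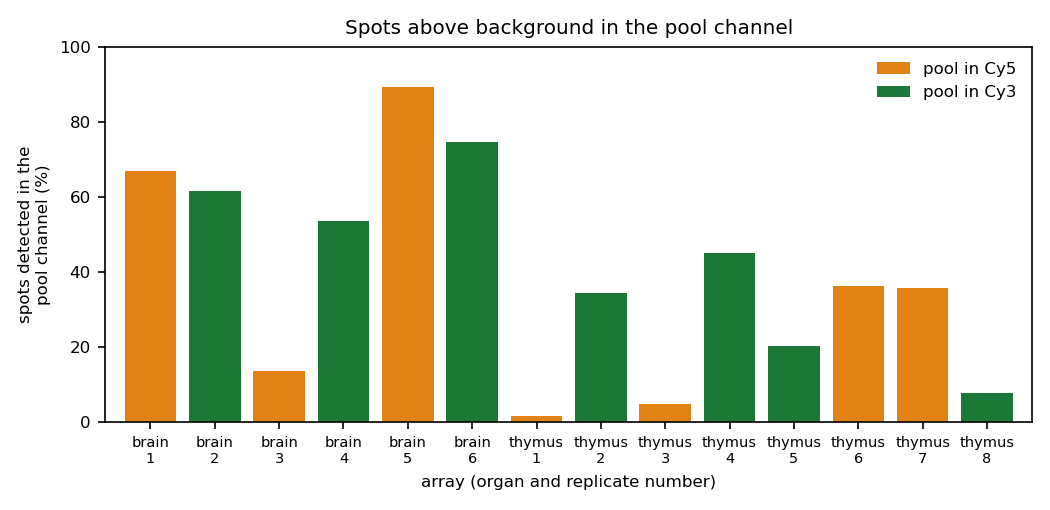
Share of spots detected in the pool channel on each array, in percent, with brain arrays left of thymus arrays and the dye of the pool in colour. Brain arrays lie between 13.6% and 89.3%, thymus arrays between 1.61% and 45%, and the ranges overlap.

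Probes entered the test if at least 0.5 of the arrays of either organ detected them, which left 15878 of 20160 probes. Of these, 12897 entered through the brain arrays alone, 153 through the thymus arrays alone and 2828 through both. With limma and Benjamini-Hochberg adjustment, 160 probes differed between the pools at an adjusted p of 0.05, which is 1.01% of those tested. Of these, 128 were higher in the brain pool (0.806% of those tested) and 32 were higher in the thymus pool (0.202%). In a tissue extract, fewer cells of a type and less RNA per cell cannot be told apart. Called probes differed by at least 0.75 on the log2 scale, with a median of 1.15 for those higher in brain and -0.95 for those higher in thymus. The median 95% confidence interval of a difference extended 0.41 to either side.

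Leaving out the arrays of brain mouse 1, 2 or 3 left 126, 35 and 35 calls, of which 9, 3 and 5 were higher in thymus. Leaving out those of thymus mouse 1, 2, 3 or 4 left 51, 61, 116 and 71 calls, of which 4, 5, 35 and 11 were higher in thymus. The share higher in brain thus lay between 69.8% without thymus mouse 3 and 92.9% without brain mouse 1, against 80% with all arrays. Without thymus array 1, whose tissue label conflicts, 136 probes were called, 121 higher in brain and 15 higher in thymus. Of the 14 genes named below, Cd8a (adjusted p = 0.129), Tcap (0.0681), Prkar1b (0.0616) and Arhgef1 (0.0607) were no longer past the threshold without it. Thymus value 1 then rests on array 2 alone, with the pool in Cy3, so the omission also shifts the balance of the dyes. How well a left-out value kept to its organ was then read on the probes called without it. The brain value lay on the side of brain for 67.5% with mouse 1, 88.6% with mouse 2 and 97.1% with mouse 3. The thymus value lay on the side of thymus for 94.1% with mouse 1, 91.8% with mouse 2, 81% with mouse 3 and 93% with mouse 4. The value of mouse 1 averages array 1, with the conflicting label, and array 2, so its share cannot show which organ array 1 carried. Across all probes, tested or not, brain values correlated with each other at 0.63 to 0.74, thymus values with each other at 0.55 to 0.61, and brain with thymus values at 0.47 to 0.60. The range between the organs overlapped that within the thymus.

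The brain values and the thymus values of all 160 called probes did not overlap, and over all tested probes 14.7% had values that did not overlap. At an unadjusted p of 0.05, 2275 probes (14.3%) passed. Among the 128 probes higher in brain, 91 were detected on all 6 brain arrays, 39 were detected on none of the 8 thymus arrays, and 82 had entered the test through the brain arrays alone. Among the 32 higher in thymus, 7 were detected on all 8 thymus arrays and 12 had entered through the thymus arrays alone. A probe that entered through 1 organ alone had to be brighter there on some arrays, so these counts describe the calls and do not support them.

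Of the 160 called probes, 14 carry the name of a gene, 11 of them higher in brain and 3 higher in thymus. They are 14 of 1090 named genes tested, or 1.28%, close to the 1.01% of all probes. The remaining 146 called probes have no gene symbol here, and 27 of them have no accession on the array at all. One such probe, MG-8-70f11, read 8.83, 9.61 and 9.51 in the brain pool and 6.67, 6.38, 6.72 and 6.58 in the thymus pool (log2 intensity). It was detected on 5 of 6 brain arrays and on none of 8 thymus arrays, and was at least 5.04-fold higher in brain (adjusted p = 0.000183). For a probe that was below detection on every thymus array, the fold is given as an approximate bound, written as "at least". It is the mean of the brain pool over a thymus mean in which each array was raised to its lowest detected signal where the probe was dimmer. Detection was judged against the background of each spot, so an undetected spot can read above that signal. The bound is therefore not a strict lower limit.

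**Figure D2:**
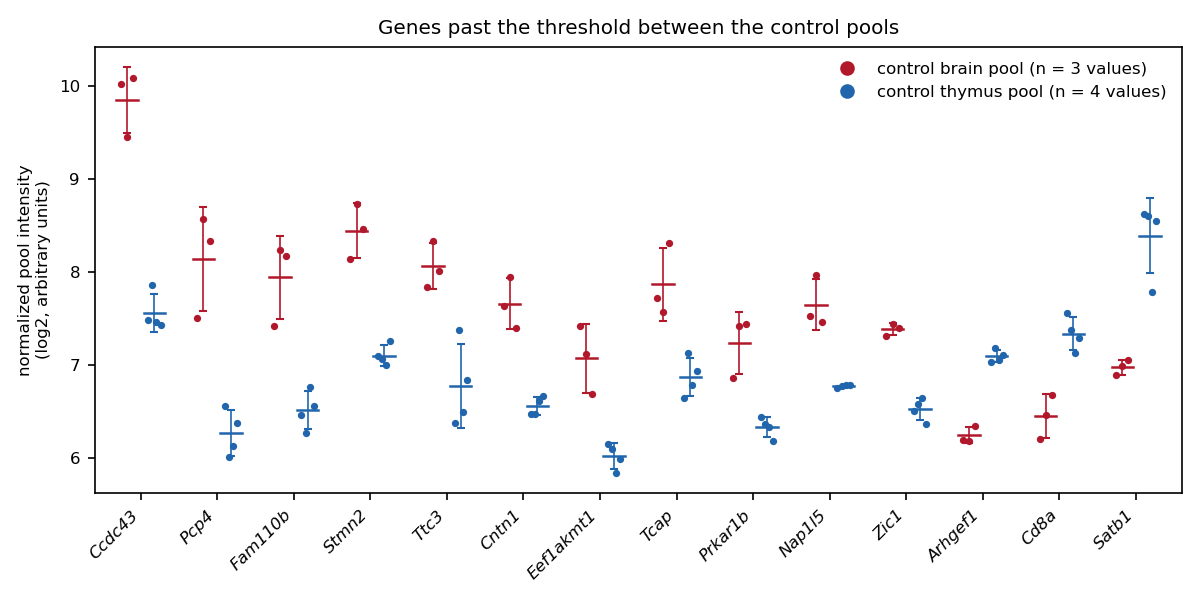
Normalised pool intensity (log2, arbitrary units) of the 14 named genes past the threshold, with 3 values of the control brain pool left of 4 values of the control thymus pool. Points are values of 2 averaged arrays, long bars are means and whiskers are SDs; brain and thymus values do not overlap for any of the 14 genes.

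All 4 brain markers, Stmn2, Pcp4, Cntn1 and Zic1, were higher in the brain pool, and both thymus markers, Satb1 and Cd8a, were higher in the thymus pool. These markers were picked with earlier results of these data known, so their direction is no independent check of the labels. Stmn2 encodes stathmin-2, a microtubule regulator of growing axons. It read 8.14, 8.73 and 8.47 in the brain pool and 7.09, 7.06, 6.996 and 7.25 in the thymus pool. Each brain value lay above each thymus value, and it was detected on 6 of 6 brain and 3 of 8 thymus arrays. The difference was 1.34 ± 0.17 on the log2 scale (SE), with an adjusted p of 0.00631, and it remained past the threshold when any 1 mouse was left out (highest adjusted p = 0.0464, without brain mouse 2). A second Stmn2 probe read 7.01, 7.83 and 7.65 in the brain pool and 6.64, 6.75, 6.95 and 6.98 in the thymus pool, a difference of 0.67 that did not pass (adjusted p = 0.180).

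Pcp4, which encodes a small calmodulin-binding protein of Purkinje cells and other neurons, was also higher in brain. It read 7.51, 8.57 and 8.33 in the brain pool and 6.56, 6.01, 6.12 and 6.38 in the thymus pool. The first brain value was the lowest of the 3, and none reached down to the thymus values. Pcp4 was detected on all 6 brain arrays and on none of the 8 thymus arrays, and was at least 2.46-fold higher in brain (difference 1.87 ± 0.25 SE, adjusted p = 0.00666). Without brain mouse 3 the adjusted p was 0.0508.

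Cntn1 encodes contactin 1, an adhesion molecule anchored on the surface of neurons. It read 7.63, 7.95 and 7.40 in the brain pool and 6.47, 6.47, 6.62 and 6.66 in the thymus pool. It was detected on all 6 brain arrays and on no thymus array, and was at least 1.64-fold higher in brain (difference 1.10 ± 0.17 SE, adjusted p = 0.0141). The call was lost without brain mouse 2 (adjusted p = 0.0913) and without thymus mouse 1, and kept in the other 5 omissions.

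Zic1, a zinc finger transcription factor of cerebellar granule cells and their precursors, had the tightest brain values of the marker genes. It read 7.31, 7.44 and 7.40 in the brain pool and 6.50, 6.58, 6.65 and 6.37 in the thymus pool. It too was detected on all 6 brain arrays and on no thymus array. Zic1 was at least 1.35-fold higher in brain (difference 0.86 ± 0.15 SE, adjusted p = 0.0258). With 1 mouse left out its adjusted p lay between 0.0388 and 0.138, and it passed in 1 of 7 omissions.

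Of the 57 genes listed for neurons, 8 were on the array under a name and all 8 were tested. Stmn2, Pcp4 and Cntn1 passed, all higher in brain, and 7 of the 8 differences lay above 0. The median difference was 0.79, against 0.0035 over the 1090 named genes, of which 549 lay above 0 and 541 below. The 7 members above 0 all entered the test through the brain arrays alone. The count and the median therefore describe these members and do not support a result for the list. Camk2b, the beta subunit of calcium and calmodulin dependent kinase II, is named after its values were seen, since it fell just short. It read 7.11, 8.04 and 7.78 in the brain pool and 6.21, 6.47, 6.65 and 6.87 in the thymus pool, without overlap (difference 1.09 ± 0.24 SE, adjusted p = 0.0597). At the other end Sncb, the gene of beta-synuclein, which entered through both organs, had a difference of -0.21 (adjusted p = 0.608).

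Genes of the synaptic vesicle and of exocytosis did not pass. Of 7 tested, 0 were called, 3 had an unadjusted p under 0.05, and the median difference was 0.42. Differences lay above 0 for 4 genes and below 0 for 3, which were Syn1 (-0.33), Slc17a7 (-0.32) and Syngr1 (-0.10), genes of a synapsin, a vesicular glutamate transporter and a synaptogyrin. The 4 genes above 0 all entered the test through the brain arrays alone, so the median does not support a result for the list. Syt1, the calcium sensor of vesicle release, read 7.50, 8.24 and 8.23 in the brain pool and 7.51, 6.31, 6.71 and 6.70 in the thymus pool. The first brain value and the first thymus value were alike, and the difference was 1.18 ± 0.28 (SE, adjusted p = 0.0837). Syp, the gene of the vesicle protein synaptophysin, read 6.92, 7.70 and 7.70 in the brain pool and 6.35, 6.48, 6.89 and 6.51 in the thymus pool (difference 0.88 ± 0.22 SE, adjusted p = 0.104). Syt1 and Syp were each detected on all 6 brain arrays and on 1 thymus array.

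Regional genes of the brain were few on the array. Of 26 genes listed for cerebellum and Purkinje cells, 5 were tested and Pcp4 and Zic1 were called, with a list median of 0.16. Pcp4 and Zic1 had entered the test through the brain arrays alone. Reln, the gene of the secreted protein reelin, had a difference of -0.081 in that list (adjusted p = 0.847). Of the transmitter receptors and ion channels, 5 were tested and 0 called, with a median of 0.14. The smallest p there belonged to Gabarapl1, a relative of the ubiquitin-like proteins of autophagy (0.85 ± 0.19 SE, adjusted p = 0.0753). Of 6 genes of striatum, hypothalamus and pituitary, 0 were called. Scg3, which encodes a granin of dense-core vesicles, had a difference of 0.76 (adjusted p = 0.106), and Tshb, the beta chain of thyrotropin, one of -0.32 (adjusted p = 0.588).

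Glial and vascular genes did not pass, and few of their lists were represented. For astrocytes 2 of 27 listed genes were tested, with differences of 0.42 for Ndrg2 (adjusted p = 0.384) and 0.00046 for Ntsr2 (adjusted p = 0.999). For oligodendrocytes 4 were tested with a median of 0.21, and the smallest p belonged to Tppp, a tubulin polymerisation factor of myelinating cells (0.66, adjusted p = 0.195), followed by Scd2, a fatty acid desaturase (0.25, adjusted p = 0.566). For microglia and macrophages 7 were tested with a median of -0.073, among them Lyz2, the gene of a macrophage lysozyme (-0.36, adjusted p = 0.354), and Fcgr2b, an Fc receptor (-0.56, adjusted p = 0.358). For endothelium 3 were tested, among them Vwf, the gene of von Willebrand factor (-0.27, adjusted p = 0.484), and Notch3, a receptor of vascular smooth muscle (0.22, adjusted p = 0.594). No gene listed for the choroid plexus was on the array under a name.

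The remaining 7 named genes that were higher in the brain pool include no marker fixed for a cell type of the brain. Ccdc43 encodes a coiled-coil protein. It read 10.02, 9.45 and 10.09 in the brain pool and 7.48, 7.86, 7.46 and 7.43 in the thymus pool, and it was detected on 6 of 6 brain and 7 of 8 thymus arrays. The difference was 2.29 ± 0.20 (SE), or 4.90-fold, with an adjusted p of 0.000338, and it remained past the threshold when any 1 mouse was left out (highest adjusted p = 0.00569).

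Fam110b, a member of the FAM110 family, read 7.42, 8.23 and 8.17 in the brain pool and 6.46, 6.27, 6.76 and 6.55 in the thymus pool. It was not detected on any thymus array and was at least 1.95-fold higher in brain (difference 1.43 ± 0.22 SE, adjusted p = 0.0136). It passed in 4 of 7 omissions of a mouse (highest adjusted p = 0.0913, without brain mouse 2). Ttc3, the gene of a ubiquitin ligase with tetratricopeptide repeats, read 7.84, 8.33 and 8.02 in the brain pool and 6.38, 7.38, 6.49 and 6.84 in the thymus pool. Thymus value 2 was the highest of its group and still lay below every brain value, with detection on 6 of 6 brain and 3 of 8 thymus arrays (difference 1.29 ± 0.24 SE, adjusted p = 0.0323). It passed in 1 of 7 omissions (highest adjusted p = 0.177, without brain mouse 2).

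Eef1akmt1, which encodes a lysine methyltransferase of elongation factor 1A, read 7.42, 7.11 and 6.68 in the brain pool and 6.15, 6.10, 5.84 and 5.99 in the thymus pool. It was at least 1.18-fold higher in brain (difference 1.05 ± 0.19 SE, adjusted p = 0.0294). Prkar1b, a regulatory subunit of protein kinase A known from brain, read 6.85, 7.42 and 7.44 in the brain pool and 6.44, 6.37, 6.33 and 6.18 in the thymus pool. It was at least 1.27-fold higher in brain (difference 0.91 ± 0.18 SE, adjusted p = 0.0435). Nap1l5, an imprinted gene of the nucleosome assembly protein family, read 7.53, 7.96 and 7.46 in the brain pool and 6.75, 6.77, 6.78 and 6.78 in the thymus pool. It was at least 1.51-fold higher in brain (difference 0.88 ± 0.16 SE, adjusted p = 0.0330). These 3 genes were not detected on any of the 8 thymus arrays, as was the case for 7 of the 11 named genes higher in brain. With 1 mouse left out, Eef1akmt1 and Prkar1b each passed in 1 of 7 cases and Nap1l5 in 0 of 7, and their highest adjusted p values, all without brain mouse 2, were 0.146, 0.224 and 0.179.

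Tcap encodes telethonin, a protein of the muscle Z-disc, and was the only called gene among the 8 tested genes of skeletal muscle and heart, whose median difference was 0.088. It read 7.72, 7.57 and 8.31 in the brain pool and 6.64, 7.12, 6.78 and 6.93 in the thymus pool, with detection on 6 of 6 brain and 2 of 8 thymus arrays (difference 0.996 ± 0.21 SE, adjusted p = 0.04995), and it passed in 0 of 7 omissions (highest adjusted p = 0.144, without brain mouse 3). A second Tcap probe read 6.97, 6.87 and 6.78 in the brain pool and 7.01, 7.05, 6.93 and 7.03 in the thymus pool. The 2 probes differ in sign, the second with a difference of -0.13 (adjusted p = 0.710), so the direction for this gene is not settled.

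In the thymus pool, the thymocyte markers Satb1 and Cd8a were both higher. Satb1 encodes an organiser of chromatin that is abundant in thymocytes. It read 6.89, 6.98 and 7.05 in the brain pool and 8.63, 8.60, 7.79 and 8.55 in the thymus pool. Thymus value 3 lay well below the other 3 and above every brain value. The difference was -1.42 ± 0.21 (SE), or 2.67-fold higher in thymus, with an adjusted p of 0.0133. Satb1 was detected on 5 of 6 brain arrays and on all 8 thymus arrays. It passed in 4 of 7 omissions, and the adjusted p without brain mouse 2 was 0.0767.

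Cd8a encodes the alpha chain of the CD8 coreceptor. It read 6.21, 6.47 and 6.68 in the brain pool and 7.55, 7.38, 7.13 and 7.28 in the thymus pool. The groups did not overlap, and the difference was -0.89 ± 0.17 (SE, adjusted p = 0.0413). It was detected on 2 of 6 brain and 7 of 8 thymus arrays, so the brain level was mostly below detection. Cd8a passed in 0 of 7 omissions (adjusted p 0.05 to 0.177, the highest without brain mouse 2), and without thymus array 1, which carries the conflicting tissue label, its difference was -0.74 with an adjusted p of 0.129. Without the same array Satb1 kept a difference of -1.34 and an adjusted p of 0.0239. That omission leaves thymus value 1 with the pool in Cy3 only.

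The third named gene higher in thymus was Arhgef1, an exchange factor that links G protein coupled receptors to RhoA in leukocytes. It read 6.20, 6.19 and 6.34 in the brain pool and 7.03, 7.18, 7.05 and 7.11 in the thymus pool. Both groups were tight, and the difference was -0.85 ± 0.14 (SE, adjusted p = 0.0234). It was detected on 1 of 6 brain and 5 of 8 thymus arrays, so the brain level was mostly below detection, and it passed in 1 of 7 omissions (highest adjusted p = 0.127, without brain mouse 2).

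Of 59 genes listed for thymocytes and the T cell receptor, 7 were tested, of which Satb1 and Cd8a were called, both higher in thymus, with a list median of -0.18. Cd4 read 7.10, 6.93 and 7.25 in the brain pool and 6.63, 7.26, 6.79 and 7.17 in the thymus pool, so the groups overlapped (difference 0.13, interval -0.29 to 0.55, adjusted p = 0.790). Cd4 was detected on 4 of 6 brain and 4 of 8 thymus arrays, and no difference between the pools was detectable for it at this spread.

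Lymphocyte signalling and cytoskeleton genes gave 0 calls among 9 tested, with a median of -0.16. Nfkbia, the inhibitor of NF-kappa-B, had the smallest p with a difference of -0.74 (adjusted p = 0.0766), which was -1.42 with the pool in Cy5 and -0.053 with the pool in Cy3. Cd52, a small surface glycoprotein of lymphocytes, had a difference of -0.48 (adjusted p = 0.272). Of the genes of thymic epithelium and dendritic cells, 5 were tested and 0 called, with Cldn3, a tight junction claudin, at -0.50 (adjusted p = 0.372) and Epcam, an epithelial adhesion molecule, at 0.47 (adjusted p = 0.503).

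No gene of the cell cycle, ribosomal protein or splicing lists passed. Of 7 tested cell cycle genes 0 were called, 3 had an unadjusted p under 0.05, and the median was -0.24. Ccnd3, cyclin D3, read 6.33, 6.60 and 6.40 in the brain pool and 7.28, 6.95, 6.95 and 7.49 in the thymus pool (difference -0.72, adjusted p = 0.0989). Ezh2, the methyltransferase of Polycomb complex 2, had a difference of -0.69 (adjusted p = 0.101). All 6 tested ribosomal protein genes lay below 0, 0 passed, and their median of -0.65 was the lowest of the 14 lists with at least 5 tested genes. Rpl27 read 6.83, 7.27 and 7.22 in the brain pool and 7.97, 7.80, 7.64 and 8.09 in the thymus pool (difference -0.77, adjusted p = 0.0770). Rpl30 had a difference of -0.80 (adjusted p = 0.140). Of 6 splicing genes 0 passed and the median was -0.32, with Hnrnpab at -0.55 (adjusted p = 0.189) and Pabpc1 at -0.46 (adjusted p = 0.458).

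**Figure D3:**
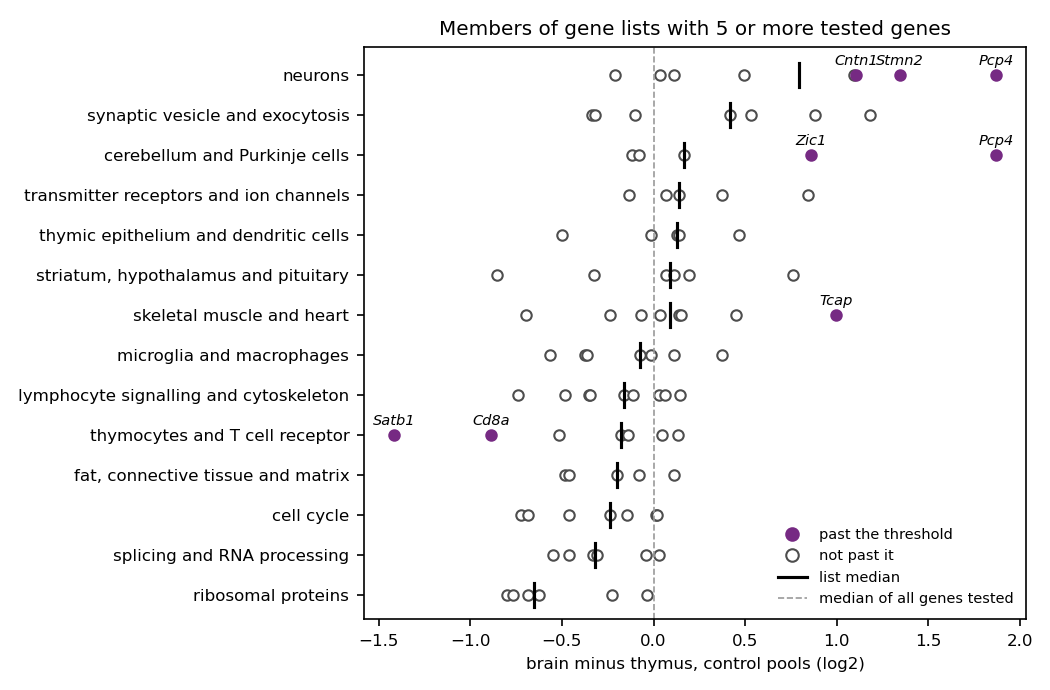
Difference between the control pools (brain minus thymus, log2) of each tested gene in the lists with at least 5 tested genes; filled points passed the threshold, short bars are list medians and the dashed line is the median of all named genes. Medians run from 0.79 for neurons to -0.65 for ribosomal proteins, and most single genes did not pass. The neuron members above 0 all entered the test through the brain arrays alone, so their median describes these members only.

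The pools were read with the pool in Cy5 on 3 brain and 4 thymus arrays and with the pool in Cy3 on the other 3 and 4 arrays, so the dye sets share no slide. All 160 called probes had the same sign in both sets, which the averaging of the sets favours. With Cy5 alone 11 probes were called and 1683 had an unadjusted p under 0.05 with limma, of which 1331 had the same sign with Cy3. With Cy3 alone 240 were called, of which 234 had the same sign with Cy5. Across the 15878 tested probes the differences of the 2 sets correlated at r = 0.35. For each of the 14 named genes the size of the difference was larger with the pool in Cy5. Zic1, for example, differed by 1.13 with Cy5 and 0.58 with Cy3, Cntn1 by 1.42 and 0.79, and Satb1 by -1.49 and -1.34. The sizes were compared by dye for the named genes only, so no share over all called probes stands beside this.

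**Figure D4:**
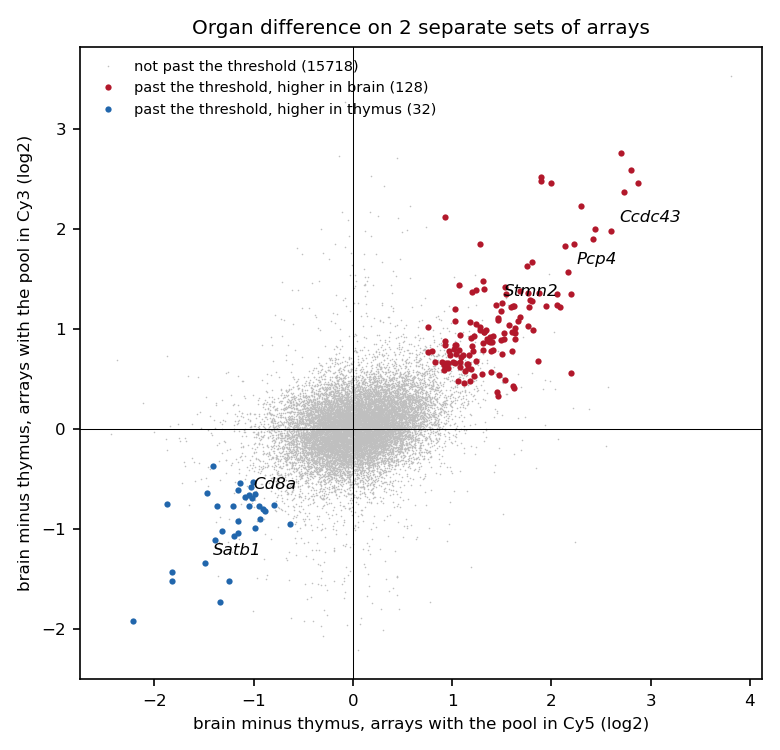
Difference between the pools (brain minus thymus, log2) of 15878 tested probes on arrays with the pool in Cy5 and on separate arrays with the pool in Cy3. The 128 probes higher in brain lie in the upper right and the 32 higher in thymus in the lower left, and Ccdc43 differed by 2.60 and 1.99.

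The other channel gave the same organ comparison in RNA of single mir-34a minus mice. It shares slides and spots with the pools, so the results are not independent. In the mutants 384 of the same probes were called (2.42%), 284 higher in brain and 100 higher in thymus. Mutants 1 to 3 gave both organs. With the animal as a block, and thymus mouse 4 left out, 151 were called, so the 2 counts differ in mice as well as in the block. All 160 probes called in the pools had the same sign in the mutants, and 141 were also called there. Across probes, the differences of pools and mutants correlated at r = 0.89 on shared slides, and at 0.53 and 0.44 where pool and mutant were read in the same dye, red or green, on separate slides. Of the 160 probes, 159 had the same sign as the pools in both of these separate mutant sets. The 160 probes were chosen on the pool channel of all arrays, which include the slides of both mutant sets. This count therefore follows in part from the choice.

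All 14 named genes had the same sign in the mutants, and 13 of them passed there without the block. With the block, and without thymus mouse 4, 9 of them passed. Stmn2 averaged 8.71 ± 0.20 in mutant brains (SD, n = 3) and 7.09 ± 0.11 in mutant thymi (SD, n = 4), a difference of 1.62 against 1.34 in the pools. Pcp4 averaged 8.46 ± 0.46 in mutant brains and 6.31 ± 0.16 in mutant thymi, a difference of 2.15 against 1.87 in the pools. Satb1 averaged 6.98 ± 0.050 in mutant brains and 8.68 ± 0.41 in mutant thymi, a difference of -1.70 against -1.42 in the pools. Cd8a differed by -1.01 in the mutants with an adjusted p of 0.0209, or 0.0523 with the block. Tcap was the exception, with 0.71 in the mutants and an adjusted p of 0.229. The size of the difference was larger in the mutants for 11 of the 14 genes, a count not taken over all called probes. The test of whether the organ difference itself differed between mutants and pools called 0 of 15878 probes (0%) with limma, with 691 at an unadjusted p under 0.05 and a smallest adjusted p of 0.954. Of the 14 genes, 4 were among these 691 of 15878 probes, each with an adjusted p of 0.954.

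**Figure D5:**
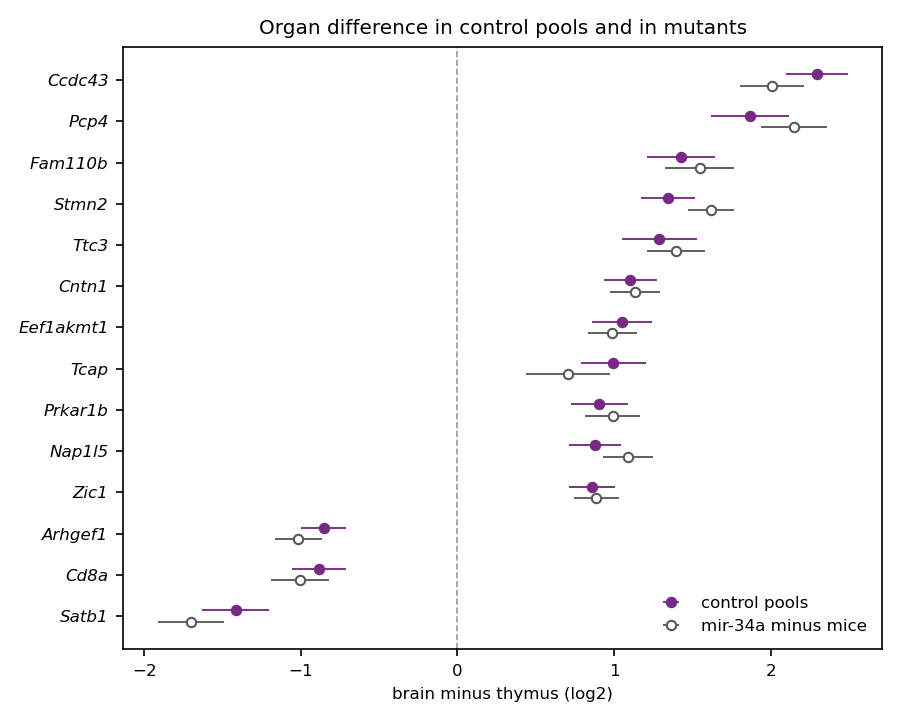
Difference between brain and thymus (log2, with SE) of the 14 named genes in the control pools and in mir-34a minus mice on the same slides. The signs are the same for all 14 genes, from 2.29 and 2.01 for Ccdc43 to -1.42 and -1.70 for Satb1.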

How the data were processed

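The deposited scanner files, 1 per array, hold spot intensity and local background of a red and a green scan, per the file headers, with no normalisation by the authors. Cy5 was read from the red scan and Cy3 from the green one, per the labels' dyes. Total RNA was labelled indirectly during reverse transcription, per the labels' protocols, and no source names the scanner or its software. The table of ratios was not used, since a ratio holds no level of the pool. The percent of saturated pixels of each spot, as deposited and per the file headers, was read as a check, and it exceeded 50% for 1 spot on 1 array. No 2 arrays held identical values.

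Foreground means less the local background median were set to at least 0, raised by an offset of 50, put on the log2 scale and quantile normalised within each dye over its arrays. Spots flagged -50 (not found) were kept as low values. Spots of a probe and then the 2 arrays of a mouse were averaged. The offset compresses differences of dim probes. Differences are brain minus thymus, tested with limma 3.58.1 (lmFit and eBayes) under R 4.3.3 with Benjamini-Hochberg adjustment over 15878 probes and no block. The procedure was tested on the measured values with known differences put in. The number of arrays limits the precision.

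Probes were named by accession (961) or a synonym of a single gene (492) in a RefSeq gene table of GRCm38.p6, used for names alone. The 3 promoter windows and their coordinates come from a separate RefSeq table of the same build. Of 20160 probes, 6289 have no accession, 12417 had no match and 1 matched several genes. Named genes are all those past the threshold with values that do not overlap and 1 sign in both dyes, and of each of 31 lists the called members or else the 2 of smallest p, by the brightest probe. Some members of the lists are not reported here. Members, markers and lists were chosen with earlier results of these data known.

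In the pools, same-numbered brain and thymus values share a number and no RNA source (deviations correlated at -0.041, -0.011 and -0.058). In the mutants they come from the same animal (-0.022, 0.0060 and 0.012), so the animal is a block there. Alternatives covered background, normalisation, filters, flags, dyes, single arrays and mice.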

Additional observations from a re-analysis of the deposited data

Results flagged for a closer look

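In 6 of the 58 genes named by value, 1 of the 4 thymus values stood apart from the other 3 by more than Dixon's limit for groups of 4, as chance gives in about 1 of 20 groups. Thymus value 3 was the low one in 4 of them. It was 7.79 for Satb1, against 8.55 to 8.63 for the other thymus values, and 7.22 for Nfkbia, against 7.58 to 7.63. It was 7.67 for Rpl30, against 7.94 to 7.99, and 6.76 for Pabpc1, against 7.81 to 7.87. All 4 of these genes have differences below 0. Value 3 rests on thymus arrays 5 and 6, and on array 6 the pool channel of Satb1 read 7.37, against 8.20 on array 5. Without array 6 the difference of Satb1 was -1.54 (adjusted p = 0.00139). For Ccdc43 thymus value 2 was high at 7.86, against 7.43 to 7.48, and for Ezh2 thymus value 1 was high at 7.57, against 7.12 to 7.20.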

How the results depend on the processing

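Of 160 called probes, none changed sign wherever they were tested under 29 alternatives, 3 of them chosen after seeing the data. These probes were called on the same arrays, with values that do not overlap and 1 sign in both dyes. The unchanged sign therefore follows largely from the choice. The count of calls moved. It was 319 with foreground medians, 91 with an intensity trend, 11 with the pool in Cy5 alone, 328 with single arrays and the mouse as a random block, 244 without thymus array 6 and 71 without thymus array 8. Leaving out 1 array leaves the value of that mouse with the pool in 1 dye. Another scaling moved the split: 80% of calls were higher in brain in the main setting, 92.6% of 68 calls with median centring, and 99.6% of 1138 calls with no normalisation, where the median of all probes lay at 0.50 against 0.025. Calls were also 92.7% higher in brain with flagged spots left out (177 calls of 7791 tested probes, with 64 of the 160 not tested). The share was 92.1% with detection required on all arrays of 1 organ (214 calls of 1605 tested probes). It fell to 65.8% with the pool in Cy3 alone (240 calls of 15878 tested probes, the number tested in the main setting). The floor, normexp, background, filter and Cy3 settings stayed within 1.5 times the count. Leaving out 1 mouse gave 35 to 126 calls and kept 3 to 8 of the 14 named genes. With the mouse number as a replicate block in the pools, and thymus mouse 4 left out, 21 probes and 1 named gene (Ccdc43) were called. In the mutants, where the block is the animal, 151 were called, again without thymus mouse 4. Of the alternatives added later, thymus arrays 1, 6 and 8 left out together gave 57 calls and array weights 332. Detection required in both organs gave 87 calls of 2828 tested probes, 67.8% of them higher in brain, with 96 of the 160 not tested. Ccdc43 passed in 29 of 29 alternatives, Pcp4 in 24 of 27, Stmn2 in 25 of 28, Satb1 in 21 of 29, Cd8a in 9 of 27 and Tcap in 8 of 28. The causes were not tested. With 27.4% of spots detected on the median thymus array, low thymus levels are approximate bounds.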

Other observations

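Genes of energy and lipid metabolism were covered thinly and none passed. Of 3 tested glycolysis genes, with a median difference of 0.27, Pfkm, the muscle phosphofructokinase, had 0.48 (adjusted p = 0.298) and Hk2, a hexokinase, 0.27 (adjusted p = 0.500). Of 3 tested genes of sterol and lipid synthesis, with a median of 0.23, Srebf2, the regulator of cholesterol synthesis, had 0.23 (adjusted p = 0.5998) and Scd2 had 0.25 (adjusted p = 0.566). Of 3 mitochondrial genes, with a median of -0.071, Atp5a1, a subunit of ATP synthase, had 0.12 (adjusted p = 0.808) and Idh3g, a subunit of isocitrate dehydrogenase, -0.071 (adjusted p = 0.907).

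Lists of connective tissue, matrix and blood likewise gave 0 calls. Mmp2, a matrix metalloproteinase, had a difference of -0.48 (adjusted p = 0.291) and Lpl, lipoprotein lipase, -0.46 (adjusted p = 0.359), in a list of 5 tested genes with a median of -0.20. Acan and Tnc, which encode matrix proteins, had -0.043 (adjusted p = 0.951) and 0.079 (adjusted p = 0.877). Mmp8, a neutrophil collagenase, had -0.073 (adjusted p = 0.903).

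Among regulators, Mta2, a subunit of a chromatin remodelling complex, had -0.50 (adjusted p = 0.307) and Rbbp7, a histone-binding protein, -0.012 (adjusted p = 0.984). Of 3 tested genes of apoptosis and p53 targets, Birc2, an inhibitor of apoptosis, had -0.36 (adjusted p = 0.328). The chaperone genes Dnajb1 and Hsp90b1 had -0.17 (adjusted p = 0.767) and -0.15 (adjusted p = 0.725). The ubiquitin and proteasome genes Ube2d3 and Psmd14 had -0.26 (adjusted p = 0.514) and -0.077 (adjusted p = 0.881), and Eif4e, the cap-binding protein, had -0.18 (adjusted p = 0.782). No gene listed for MHC class I or the interferon response was on the array under a name.

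Some probes without a gene symbol differed widely. MG-6-3g14 read 8.72, 9.12 and 8.87 in the brain pool and 6.28, 6.35, 6.09 and 6.12 in the thymus pool, was not detected on any thymus array, and was at least 4.20-fold higher in brain (adjusted p = 5.31e-05). MG-3-69n2 read 6.67, 6.55 and 6.65 in the brain pool and 9.02, 8.78, 8.43 and 8.51 in the thymus pool, a difference of -2.06, or 4.18-fold higher in thymus (adjusted p = 0.000338). MG-16-239j23 read 6.25, 6.41 and 6.37 in the brain pool and 8.24, 8.34, 7.57 and 7.91 in the thymus pool, a difference of -1.67 (adjusted p = 0.00376). In the mutants these 3 probes differed by 3.14, -2.33 and -1.87. Each of the 3 passed with an adjusted p under 0.05 in the mutants as well.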
